A study of Bos taurus with 12 samples.

Results

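CYP19A1 encodes aromatase. It was 1 of 9155 genes on the array with a symbol, and 4 of the 24016 probe sets that are not controls were annotated to it. All 4 were taken as members, by the gene symbol in the platform's probe annotation and without regard to their signal. The probe sets Bt.4447.1.S1_at and Bt.4447.2.S1_a_at, called the first and the second probe set below, passed the filter on low values, which required a group mean above the 40th percentile (a signal of 22.5) in at least 1 group. Bt.4447.3.S1_at lay between 0.5 and 8.4 and Bt.4447.3.A1_at between 0.3 and 5.8 over the 12 arrays, and neither was tested.

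The study profiled granulosa cells and theca cells from small (at most 5 mm), medium (5 to 10 mm) and large (over 10 mm) bovine antral follicles on Affymetrix bovine arrays, with 2 arrays for each of the 6 groups. The ovaries of all groups came from young, untreated, non-pregnant cycling heifers and carried no corpus luteum. Each RNA sample pooled the cells of many follicles of 1 size. The submitters call the 2 samples of a group separate biological replicates, but the labels do not say whether pools of different groups shared animals. Each p-value reported here thus measures spread among pools, which may be partly technical. One label field names theca for all 12 samples, while titles and source names give granulosa for 6 of them, and the titles were followed.

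Aromatase is the cytochrome P450 that converts androgens to oestrogens, and it is the last step of oestradiol synthesis. In the follicle, theca cells under luteinising hormone make androstenedione, which crosses the basement membrane and is aromatised by granulosa cells under follicle-stimulating hormone. In cattle, granulosa aromatase is known as a mark of the growing dominant follicle, and theca cells are generally described as having little of it.

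The layer labels were set against marker genes first. These markers and the gene lists below were chosen with earlier results of these data known. CYP17A1, the theca enzyme that makes androgens, had signals of 1785.8 to 5781.5 on the theca arrays and of 26.5 to 227.7 on the granulosa arrays. All 5 tested markers of theca steroid cells were lower in granulosa over all sizes, and 9 of 12 granulosa markers were higher, in a comparison in which 24.8% of all 17236 tested probe sets were called (13.6% higher and 11.2% lower in granulosa, at adjusted p under 0.05 in the limma fit described below). The 12 granulosa markers summed to 21556 to 30976 on the granulosa arrays and to 8633 to 16708 on the theca arrays, so granulosa marker RNA was measurable in the theca samples. Most of each theca sum came from INHA (2929.9 to 7721.7) and SERPINE2 (3237.9 to 7545). KRT18, an epithelial keratin of granulosa cells, was at 56.7 to 292.5 in theca, and the summed marker level of theca lay below every granulosa array. In such bulk samples, fewer cells of a type and less RNA per cell cannot be told apart.

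Some arrays stood apart. Theca small replicate 1 had a GAPDH 3′ to 5′ signal ratio of 8.36 against 0.984 to 1.30 on the other arrays. On granulosa large replicate 1 the median signal was 48.8, above all other arrays, with an actin 3′ to 5′ ratio of 21.0 and red blood cell markers that summed to 668 against at most 93.5 elsewhere. Where leaving out both arrays ended a call of CYP19A1 or of a gene described with its size or layer change, the value without them is given.

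In granulosa cells, CYP19A1 was low in small follicles and high in medium and large ones. The first probe set gave 113 and 126.4 in small follicles, 3113.9 and 1819.7 in medium follicles, and 3134.3 and 1820.5 in large follicles (replicates 1 and 2). Every medium and every large array lay above both small arrays, and the medium and large groups overlapped almost entirely. The mean signal was 119.7 ± 9.48 in small follicles, 2466.8 ± 915 in medium follicles and 2477.4 ± 929 in large follicles (SD, n = 2).

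CYP19A1 rose in granulosa from small to large follicles by 4.15 ± 0.63 on the log2(signal + 16) scale (SE), a 17.7-fold difference with an adjusted p of 0.00587. The p-value came from limma's moderated test fitted to all 6 groups and was adjusted by the Benjamini-Hochberg method over all tested probe sets of the comparison, of which 2.22% were called at adjusted p under 0.05 (1.82% higher and 0.4% lower in large follicles). By the size of its change CYP19A1 stood at rank 7 of the 17236 probe sets. The call was lost without granulosa small replicate 1 (adjusted p = 0.0870), granulosa small replicate 2 (0.0552) or granulosa large replicate 1 (0.103), and without the 2 arrays that stood apart (3.76, adjusted p = 0.0674), while the change stayed between 3.76 and 4.54 whichever array was left out.

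Between small and medium follicles the granulosa difference was as large, at 4.14 ± 0.63 (17.7-fold), and it had the largest absolute value of all tested probe sets in that comparison. Its unadjusted p of 1.24e-05 was the second smallest, and its adjusted p of 0.0621 missed the threshold, in a comparison in which 0.0058% of probe sets (1 probe set) were called. It passed the threshold when the arrays were scaled to a common median (4.17, adjusted p = 0.0217), when the granulosa arrays were fitted alone (adjusted p = 0.00193), and when theca small replicate 1 (0.0456), theca small replicate 2 (0.0442), theca medium replicate 1 (0.0171) or theca medium replicate 2 (0.0165) was left out. Between medium and large follicles the difference was 0.01, with a 95% interval of -1.34 to 1.35 and an adjusted p of 0.998 (0.679% of probe sets called), so the interval still allows a difference of more than 2-fold in either direction. An exact permutation test of the slope of log2(signal + 16) over small, medium and large in the 6 granulosa arrays gave 2.07 per step (two-sided p = 0.0444, with 0.0222 the smallest p that the 90 arrangements allow). With quantile normalization or median scaling its p was 0.111.

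In theca cells, CYP19A1 was near the filter level in small follicles and lay around the granulosa values in large ones. The first probe set gave 21.9 and 52.8 in small, 911.6 and 183.8 in medium, and 1633.2 and 4279.2 in large follicles. The 3 theca groups did not overlap, but the arrays of a group lay further apart than in granulosa, with a 4.96-fold gap in medium and a 2.62-fold gap in large follicles against at most 1.72-fold in any granulosa group. Theca large replicate 2 held the highest CYP19A1 signal of the 12 arrays, and theca small replicate 1 the lowest.

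CYP19A1 rose in theca from small to large follicles by 5.70 ± 0.63 on the log2(signal + 16) scale, which is 52.1-fold (limma, adjusted p = 0.00203). With no value added, the ratio of the geometric mean signals was 77.7, and it was 50.1 without theca small replicate 1, whose signal of 21.9 lay below the filter level. Ratios of single arrays ran from 30.9 to 195. This was the largest change of all tested probe sets in the comparison, in which only 0.0348% were called, and all 6 called probe sets were higher in large follicles. The others were INHBA, TNFAIP6, APOA2, LOC767968 and a probe set without a gene symbol (Bt.24940.1.A1_at). The last 3 were named after their values were seen. The call was lost without theca large replicate 2 (5.01, adjusted p = 0.0606), without the 2 arrays that stood apart (5.27, adjusted p = 0.0654), and when the 6 theca arrays were fitted alone (5.70, adjusted p = 0.182).

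The differences between neighbouring sizes in theca were not called. The difference was 3.08 ± 0.63 from small to medium follicles (8.43-fold, adjusted p = 0.464) and 2.63 ± 0.63 from medium to large (6.18-fold, adjusted p = 0.679) in the limma fit, and these comparisons called 0.0116% and 0% of probe sets. In the medium to large comparison 539 of the 17236 probe sets had an unadjusted p under 0.05, a share below that threshold itself. The small to medium difference was called without theca small replicate 2 (3.51, adjusted p = 0.0435) and without theca medium replicate 2 (4.18, adjusted p = 0.0358). The slope over the 3 sizes in theca was 2.85 per step in the exact permutation test, with a two-sided p of 0.0222, the smallest that its 90 arrangements can give.

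**Figure D1:**
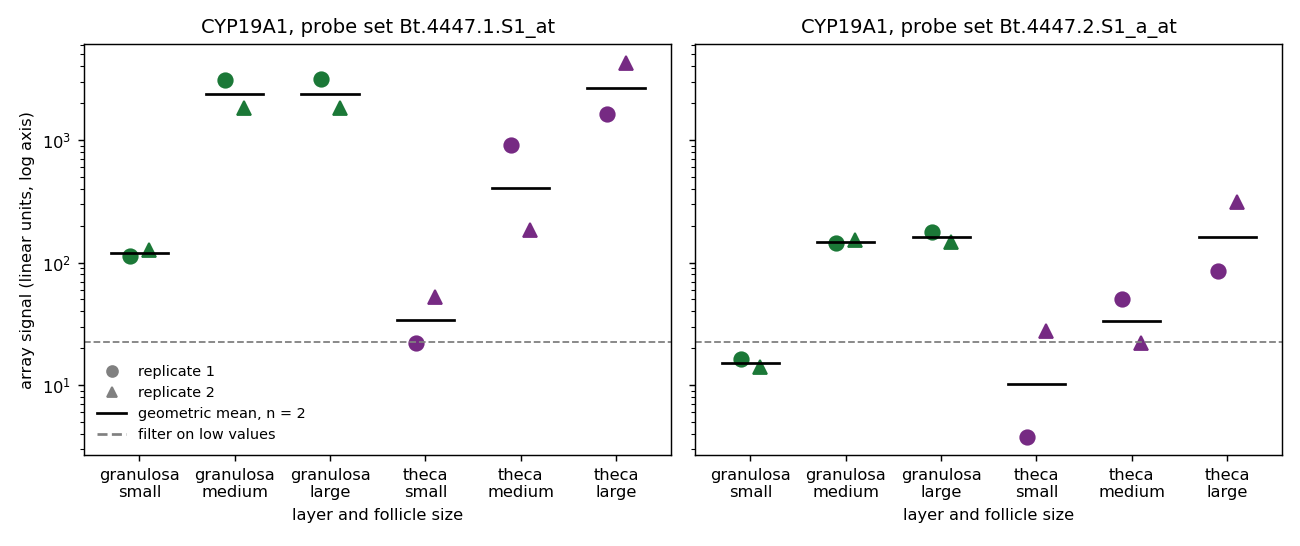
CYP19A1 signal on each of the 12 arrays (logarithmic y axis, authors' scaled signal) by layer and follicle size for the 2 measured probe sets. Symbols are the replicates and bars the geometric means (n = 2), and the dashed line is the filter level of 22.5. On the first probe set granulosa medium and large lie between 1819.7 and 3134.3, and theca climbs from 21.9 and 52.8 in small to 1633.2 and 4279.2 in large follicles.

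CYP19A1 was called higher in granulosa than in theca in medium follicles, and no layer difference was called in small or large follicles. In medium follicles the granulosa level was higher by 2.48 ± 0.63 on the log2(signal + 16) scale (5.57-fold, limma adjusted p = 0.0325), in a comparison in which 6% of probe sets were called. That call depended on the processing. It was lost with 1 in place of 16 added to the signal (2.54, adjusted p = 0.110), with 64 added (2.32, adjusted p = 0.0558), without the filter on low values (adjusted p = 0.0629), and without theca medium replicate 2 (1.37, 0.431), granulosa medium replicate 1 (2.09, 0.184), granulosa medium replicate 2 (2.86, 0.0787), granulosa small replicate 1 (0.0526) or granulosa small replicate 2 (0.0524).

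In small follicles the granulosa signal of CYP19A1 was 2.65-fold that of theca (1.41 ± 0.63, limma adjusted p = 0.177, 9.14% of probe sets called). Both granulosa arrays lay above both theca arrays. In large follicles the difference was -0.15, with a 95% interval of -1.50 to 1.20 and an adjusted p of 0.923, in a comparison that called 4.41% of probe sets. The theca arrays of large follicles lay on both sides of the granulosa arrays. The interval allows either layer to be more than 2-fold higher.

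Over all sizes CYP19A1 was higher in granulosa by 1.25 ± 0.36 (2.37-fold, limma adjusted p = 0.0227). An exact permutation test that exchanged the layer labels within each size gave a two-sided p of 0.0648 for this difference (smallest possible p 0.00926). The limma call was lost without granulosa small replicate 2 (1.22, adjusted p = 0.0573), granulosa medium replicate 1 (1.12, 0.0590), granulosa large replicate 1 (1.12, 0.0632), theca small replicate 1 (1.10, 0.0566), theca medium replicate 2 (0.88, 0.0707) or theca large replicate 1 (1.02, 0.0727), and without the 2 arrays that stood apart (0.97, 0.111).

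The change with size was compared between the layers by an interaction term. From medium to large follicles the granulosa change minus the theca change of CYP19A1 was -2.62 ± 0.89, with an unadjusted p of 0.0106 and an adjusted p of 0.450 in the limma fit. From small to medium it was 1.07 ± 0.89 (adjusted p = 0.999) and from small to large -1.55 ± 0.89 (adjusted p = 0.558). These 3 tests called 0.0232%, 0% and 0.0116% of all probe sets, so a different course of CYP19A1 in the layers was not shown at this number of arrays. In the small to medium test 433 of the 17236 probe sets had an unadjusted p under 0.05, a share below that threshold itself.

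**Figure D2:**
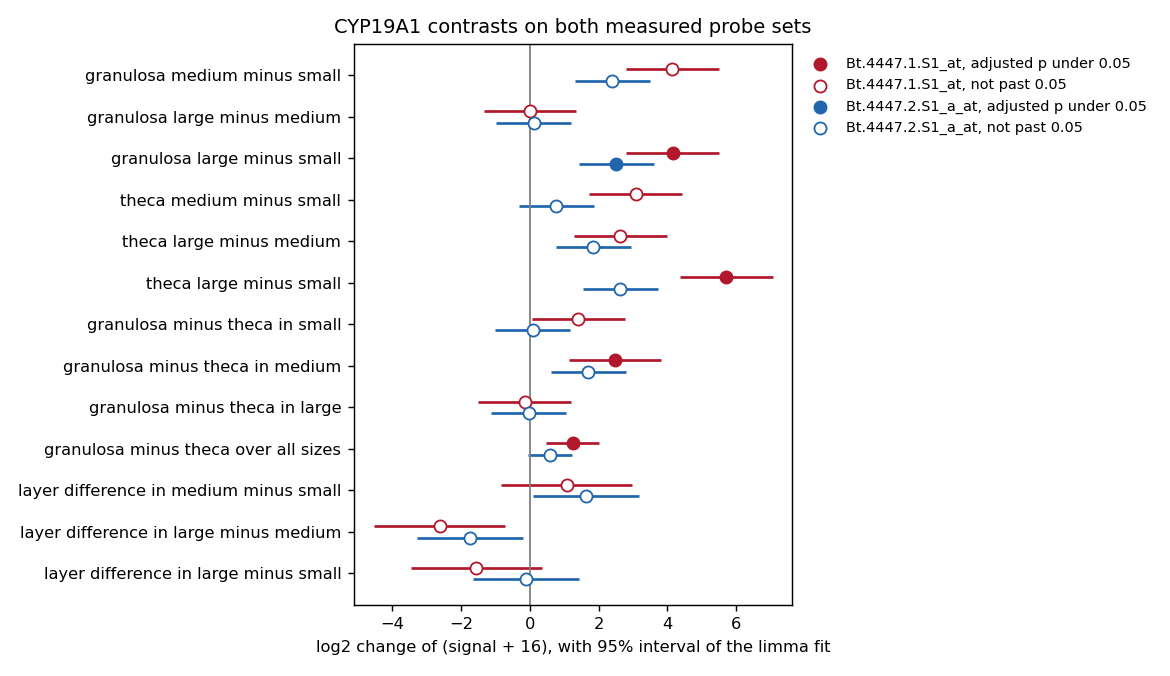
Log2 change of (signal + 16) with its 95% interval from the limma fit for the 13 comparisons, for the first (red) and the second (blue) CYP19A1 probe set, with filled symbols at adjusted p under 0.05. The first probe set lies at 4.15 for granulosa and 5.70 for theca from small to large follicles, and at -0.15 between the layers in large follicles.

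In order of mean log2(signal + 16) on the first probe set, theca large (11.38) came first, then granulosa large (11.23) and granulosa medium (11.23). Theca medium (8.75), granulosa small (7.08) and theca small (5.67) followed. The first 3 groups overlapped one another and do not differ beyond their spread. Below them no neighbouring groups shared a range of values, although theca small and granulosa small differed by no more than the test could separate.

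The second probe set gave 16.4 and 14 in granulosa of small follicles, 143.5 and 153.2 in medium and 179.3 and 146.7 in large ones. In theca it gave 3.8 and 27.8, 50.6 and 22.1, and 85.0 and 310.9. The group means stood in the order of the first probe set, and theca large replicate 2 was again the highest array. Unlike on the first probe set, theca small and medium overlapped, and both granulosa arrays of small follicles lay inside the theca range of that size. Levels of different probe sets are not comparable, because each set of probes binds with its own strength.

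On the second probe set CYP19A1 rose in granulosa from small to large follicles by 2.52 ± 0.51 (limma adjusted p = 0.0187), and that call was lost without the 2 arrays that stood apart (adjusted p = 0.106), with 1 or 64 added to the signal (0.0902 and 0.0778), and without granulosa small replicate 1, granulosa small replicate 2 or granulosa large replicate 1 (up to 0.174). The theca difference was 2.63 ± 0.51 from small to large (adjusted p = 0.107) and 0.77 from small to medium (adjusted p = 0.826, against 3.08 on the first probe set), and the layer difference was 1.71 in medium follicles (adjusted p = 0.0666), -0.03 in large follicles (0.983) and 0.59 over all sizes (0.156). Only the granulosa change was therefore called on both probe sets. The small follicle signals of the second probe set lay around or below the filter level, where the 16 added before the logarithm shrinks differences. Over the 12 arrays, which share the hybridised RNA, the probe sets correlated at Pearson's r = 0.952 and Spearman's rho = 0.923, given as a description.

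The theca level of CYP19A1 relative to granulosa was set beside the same ratio of the 12 granulosa markers. On the first probe set the mean theca signal of CYP19A1 was 31.2% of the granulosa signal in small follicles. It was 22.2% in medium and 119% in large ones. These shares rested on few arrays. With 1 array of the pair of groups left out, that in small follicles lay between 18.3% (without theca small replicate 2) and 44.1%, that in medium follicles between 7.45% (without theca medium replicate 1) and 37.0% (without theca medium replicate 2), and that in large follicles between 65.9% (without theca large replicate 2) and 173%. The second probe set had mean theca and granulosa signals of 15.8 and 15.2 in small follicles, near or below the filter level. They were 36.35 and 148.35 in medium and 197.95 and 163 in large follicles. A lower theca level in small follicles was thus not seen on the second probe set.

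The marker median was 19.04%, 19.62% and 24.46% in small, medium and large follicles. In large follicles the markers ranged from 1.81% for IHH, a hedgehog ligand made by granulosa cells, to 133% for FOXL2, a transcription factor of granulosa identity. Next to FOXL2 came the protease inhibitor SERPINE2 (92.0%) and the inhibin alpha subunit INHA (66.8%), and GATM (38.4%), AMH (35.9%) and FSHR (25.9%) followed. Below the median stood CDH2 (23.0%), KRT8 (14.5%), HSD17B1 (11.6%), CRABP2 (11.6%) and KRT18 (7.95%). The number of markers above CYP19A1 on its first probe set was 2 of 12 in small, 6 of 12 in medium and 1 of 12 in large follicles. In large follicles it was between 0 and 3 with 1 array left out. The FOXL2 value rested on granulosa large replicate 1, where its signal was 8.6, and fell to 75.1% without that array.

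The summed signal of the granulosa markers in theca was 8633 to 9842 in small, 8915 to 14236 in medium and 14208 to 16708 in large follicles, and the sums of small and large theca did not overlap. Most of these sums came from INHA and SERPINE2. INHA gave 3971.9 and 2929.9 in small and 7549.4 and 7721.7 in large theca. SERPINE2 gave 3237.9 and 4839.1 in small and 5700.1 and 7545 in large theca. The rise of the sum thus rested mainly on these genes. Single markers differed in both directions between small and large theca, from -1.54 for HSD17B1 and -1.36 for KRT18 to 1.16 for INHA, 1.51 for CRABP2 and 1.78 for FOXL2. None of the 12 was called, in a comparison that called 0.0348% of all probe sets, so the lack of calls says little. Their median difference was -0.02, against -0.02 over all tested genes.

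The markers were also set beside CYP19A1 between the replicates of each group. In small theca 7 of 12 were higher in replicate 2, where CYP19A1 differed by -0.86 (replicate 1 minus replicate 2). In medium theca 10 of 12 were higher in replicate 1, with a median difference of 0.60 on the log2 scale and a range from -0.46 for AMH to 2.37 for CRABP2, where CYP19A1 differed by 2.21. In large theca 8 of 12 were higher in replicate 2. There the median of replicate 1 minus replicate 2 was -0.43, with a range from -1.38 for CDH2 to 1.08 for KRT18, where CYP19A1 differed by -1.38. In granulosa, 7 of 12 markers in small and 8 of 12 in large follicles differed in the direction of CYP19A1. In medium granulosa 7 of 12 went against it. No such count was made over all probe sets. The part of granulosa RNA in the theca signal of CYP19A1 was not tested.

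**Figure D3:**
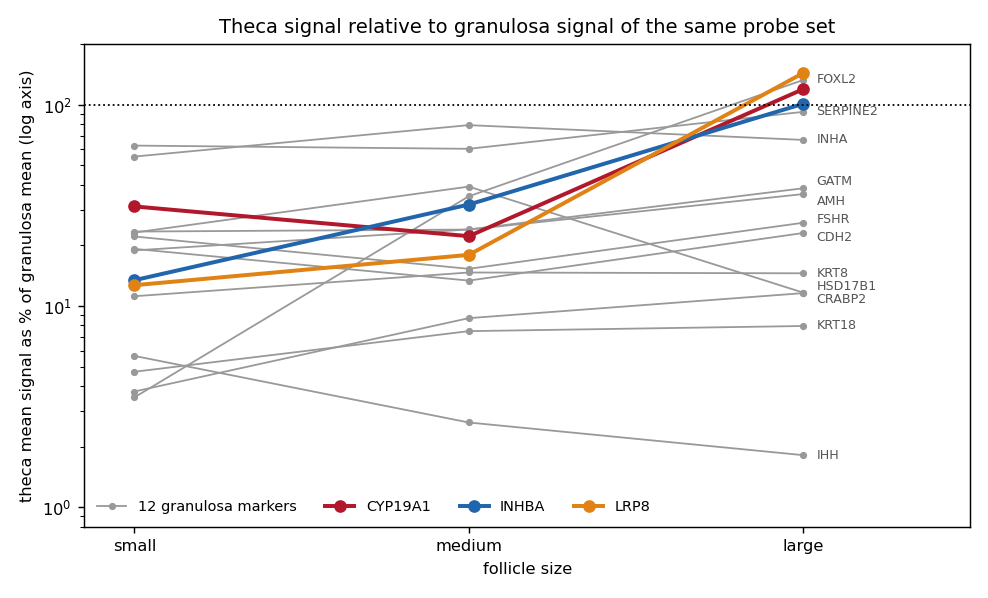
Mean theca signal as a percentage of the mean granulosa signal of the same probe set (logarithmic y axis) by follicle size, for CYP19A1 (first probe set), INHBA, LRP8 and, in grey, the 12 granulosa markers (n = 2 arrays per mean, dotted line at equal signal). CYP19A1 reaches 119%, INHBA 101% and LRP8 144% in large follicles, where the marker median is 24.46%.

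Leukocyte markers moved with follicle size in granulosa. All 15 were higher in large than in small follicles, with a median change of 3.59, and their summed signal was 704 to 813 in small, 808 to 1755 in medium and 7126 to 17956 in large follicles. Of all tested probe sets, 1.82% were called higher in large than in small follicles. Between small and medium follicles CYP19A1 differed by 4.14 and was not called, and none of the 15 was called. Their median change there was 0.48, in a comparison that called 0.0058% of all probe sets. None was called between small and large theca (0.0348% of all probe sets were), where their median change was 0.46. Their part in the granulosa change of CYP19A1 from small to large follicles was not tested.

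Of 6 other measured enzymes and carriers of oestradiol synthesis, none was called between small and large follicles in granulosa or in theca. The median change was 0.07 in granulosa, against 0.02 over all genes, and 0.62 in theca, against -0.02. With 2.22% of all probe sets called in granulosa and 0.0348% in theca, the lack of calls says little. HSD17B1, which reduces oestrone to oestradiol, gave 1301.6 and 3591.8 in granulosa of small follicles, 673.9 and 3113.2 in medium and 2458.9 and 833.7 in large ones. Its granulosa values overlapped across all sizes, and its change from small to large was -0.59 ± 0.66 (limma adjusted p = 0.740). HSD17B1 was higher in granulosa than in theca over all sizes by 1.91 ± 0.38 (adjusted p = 0.00275) and in large follicles by 2.85 ± 0.66 (adjusted p = 0.0272). The call in large follicles was lost without granulosa large replicate 1, theca large replicate 1 or theca large replicate 2 (adjusted p up to 0.203), without the 2 arrays that stood apart (0.171), with 1 or 64 added to the signal (0.0841 and 0.0640) and without the filter on low values (0.0534).

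POR, the reductase that passes electrons to aromatase and other microsomal P450 enzymes, was higher in granulosa over all sizes by 0.83 ± 0.24 (limma adjusted p = 0.0204). That call was lost without granulosa small replicate 2, granulosa medium replicate 2, theca medium replicate 2 or theca large replicate 1 (adjusted p up to 0.0803), and with median scaling (0.0509). FDX1, the electron carrier of mitochondrial P450 enzymes, was lower in granulosa by 1.62 on the log2 scale, that is -1.62 ± 0.18 (adjusted p = 2.55e-05). The remaining measured members did not pass the test over all sizes, at -0.13 for CYP11A1, which cleaves the cholesterol side chain, -0.18 for the cholesterol transporter STAR and 0.41 for HSD3B1.

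Of the 8 measured genes of androgen supply, 3 were lower in granulosa in large follicles (2.39% of all probe sets were). Over all sizes 3 (37.5%) were lower, against 11.2% of all probe sets. None was called between small and large follicles in either layer, where 2.22% (granulosa) and 0.0348% (theca) of all probe sets were. CYP17A1 differed between the layers by -5.42 ± 0.33 over all sizes (limma adjusted p = 9.7e-08) and INSL3, a peptide hormone of theca cells, by -3.89 ± 0.27 (adjusted p = 3.38e-07). SCARB1, a lipoprotein receptor that supplies cholesterol, differed by -1.23 ± 0.25 (adjusted p = 0.00316). In large follicles the SCARB1 call (adjusted p = 0.0427) was lost in 14 of the 22 alternatives tried for it, quantile normalization (0.0572) and the omission of the 2 arrays that stood apart (0.0899) among them, with adjusted p up to 0.328. In large follicles CYP17A1 differed by -5.03 ± 0.57 (adjusted p = 0.000291).

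None of the 12 measured genes of gonadotrophin and cAMP signalling was called between small and large follicles in either layer. At the shares of all probe sets called, 2.22% in granulosa and 0.0348% in theca, the lack of calls says little. Over all sizes 2 of 12 (16.7%) were higher in granulosa and 1 (8.33%) was lower, near the 13.6% and 11.2% of all probe sets. FSHR, the receptor for follicle-stimulating hormone, was higher in granulosa by 1.86 ± 0.37 (limma adjusted p = 0.00251) and its change from small to large granulosa was -0.66 ± 0.64 (adjusted p = 0.692). LHCGR, the receptor for luteinising hormone, was lower in granulosa (-1.12 ± 0.21, adjusted p = 0.00157). Its change from small to large follicles was 1.35 ± 0.36 in granulosa (adjusted p = 0.0716) and 1.48 ± 0.36 in theca (0.208), neither called. The adenylyl cyclase ADCY6 was higher in granulosa by 0.87 ± 0.24 (adjusted p = 0.0191), a call lost on leaving out the same 4 arrays as for POR (adjusted p up to 0.0678).

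Among 20 measured transcription factors reported to act on aromatase, none was called between small and large follicles in either layer. Those comparisons called 2.22% of all probe sets in granulosa and 0.0348% in theca, so the lack of calls says little. Over all sizes 4 (20%) were higher and 3 (15%) lower in granulosa, against 13.6% and 11.2% of all probe sets. NR5A2, a nuclear receptor that activates steroidogenic promoters, was higher in granulosa by 2.45 ± 0.26 (limma adjusted p = 1.66e-05), and its relative NR5A1 differed by -0.28 (adjusted p = 0.429). The oestrogen receptor ESR2 was higher by 1.13 ± 0.20 (adjusted p = 0.00108) and the nuclear receptor PPARG by 2.27 ± 0.43 (adjusted p = 0.00185). The orphan nuclear receptors NR2F2 (-3.27 ± 0.17, adjusted p = 3.13e-08) and NR2F1 (-1.74 ± 0.20, adjusted p = 4.32e-05) were lower in granulosa. FOXL2 differed by 0.88 (adjusted p = 0.0760) and did not pass.

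Of 22 measured growth factors, receptors and binding proteins reported to act on aromatase, 1 was called from small to large follicles in each layer, INSR in granulosa and INHBA in theca. These comparisons called 2.22% and 0.0348% of all probe sets. The insulin receptor INSR fell by 1.81 on the log2 scale in granulosa (adjusted p = 0.0413 in the limma fit). That call was lost in 12 of the 22 alternatives tried for it, 8 of them with 1 array left out, with adjusted p up to 0.287. Over all sizes 13 of the 22 (59.1%) were higher and 4 (18.2%) lower in granulosa, against 13.6% and 11.2% of all probe sets, with a median of 0.92 against 0.04 over all genes. IGFBP5 was higher in granulosa by 2.86 ± 0.27 (adjusted p = 4.86e-06), while IGFBP3 (-3.05), IGF2 (-2.98) and IGFBP4 (-2.95) were lower. Further tested probe sets of IGF2 gave -2.80 and, in the other direction, 0.38. IGF2 is an insulin-like growth factor, and the IGFBP genes encode proteins that bind such factors.

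Of the 10 genes of oestrogen response and clearance with a probe set, 7 were measured and none was called with size. From small to large follicles 2.22% of all probe sets were called in granulosa and 0.0348% in theca. Over all sizes 1 was higher and 1 lower in granulosa (14.3% each, near the 13.6% and 11.2% of all probe sets). The oestrogen receptor ESR1, the oestrogen sulphotransferase SULT1E1 and UGT2B10 lay below the filter. HSD17B4, which oxidises oestradiol, was lower in granulosa (-0.80 ± 0.18, limma adjusted p = 0.00601).

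Of 8 measured genes reported higher in granulosa of dominant bovine follicles, all 8 had a change above 0 from small to large granulosa. Their median was 1.07 against 0.02 over all genes, but none was called (2.22% of all probe sets were). Over all sizes 2 (25%) were higher and 3 (37.5%) lower in granulosa, against 13.6% and 11.2% of all probe sets. INHBA, which encodes the activin and inhibin beta A subunit, was the only one of the 8 called between small and large theca (0.0348% of all probe sets were). It gave 171.3 and 135.2 in small, 2846.9 and 955.9 in medium and 2621.5 and 5756.4 in large theca, and its arrays in small follicles lay below all others. INHBA rose in theca from small to large follicles by 4.54 ± 0.50 (23.2-fold, limma adjusted p = 0.00203). The call was lost without theca large replicate 2 (adjusted p = 0.0606), without the 2 arrays that stood apart (0.0558) and with the theca arrays alone (0.182).

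In granulosa INHBA gave 1205 and 1078.4 in small, 6564.5 and 5362.2 in medium and 5341.9 and 2959.4 in large follicles. Its difference from small was 2.36 ± 0.50 in medium (limma adjusted p = 0.255) and 1.79 ± 0.50 in large follicles (0.0850), neither called. Between the layers it differed by 0.03 in large follicles and was higher in granulosa over all sizes by 1.55 ± 0.29 (adjusted p = 0.00166). LRP8, a lipoprotein receptor family member that binds reelin, differed between small and large theca by 3.90 ± 0.73 (adjusted p = 0.0941) and was higher in granulosa over all sizes (1.30 ± 0.42, adjusted p = 0.0374). That last call was lost in 12 of the 21 alternatives tried for it, 8 of them with 1 array left out, and its adjusted p was highest without the 2 arrays that stood apart (0.144).

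Of the 9 measured ovulation and luteinisation genes, 2 were called higher in granulosa of large than of small follicles and 1 of these in theca. Of all probe sets, 1.82% were called higher in granulosa and 0.0348% in theca. TNFAIP6, a hyaluronan-binding protein of the cumulus matrix, rose by 2.95 ± 0.60 in granulosa (limma adjusted p = 0.0192) and by 4.53 ± 0.60 in theca (adjusted p = 0.00907). OXT, which encodes oxytocin, rose by 2.49 ± 0.52 in granulosa (adjusted p = 0.0219) and differed by 2.90 ± 0.52 in theca (adjusted p = 0.0892). The granulosa calls of both genes were lost without granulosa small replicate 1, granulosa small replicate 2 or granulosa large replicate 1, with adjusted p up to 0.179 for TNFAIP6 and up to 0.159 for OXT, and that of OXT also without granulosa large replicate 2 (0.0652). Without the 2 arrays that stood apart the adjusted p was 0.142 for TNFAIP6 and 0.0620 for OXT, and with 1 added to the signal 0.142 and 0.156. The theca call of TNFAIP6 was lost without theca small replicate 1 or theca large replicate 2 (adjusted p = 0.0605 and 0.165), without the 2 arrays that stood apart (0.119) and with 1 added to the signal (0.126), and the theca arrays alone gave 0.269.

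**Figure D4:**
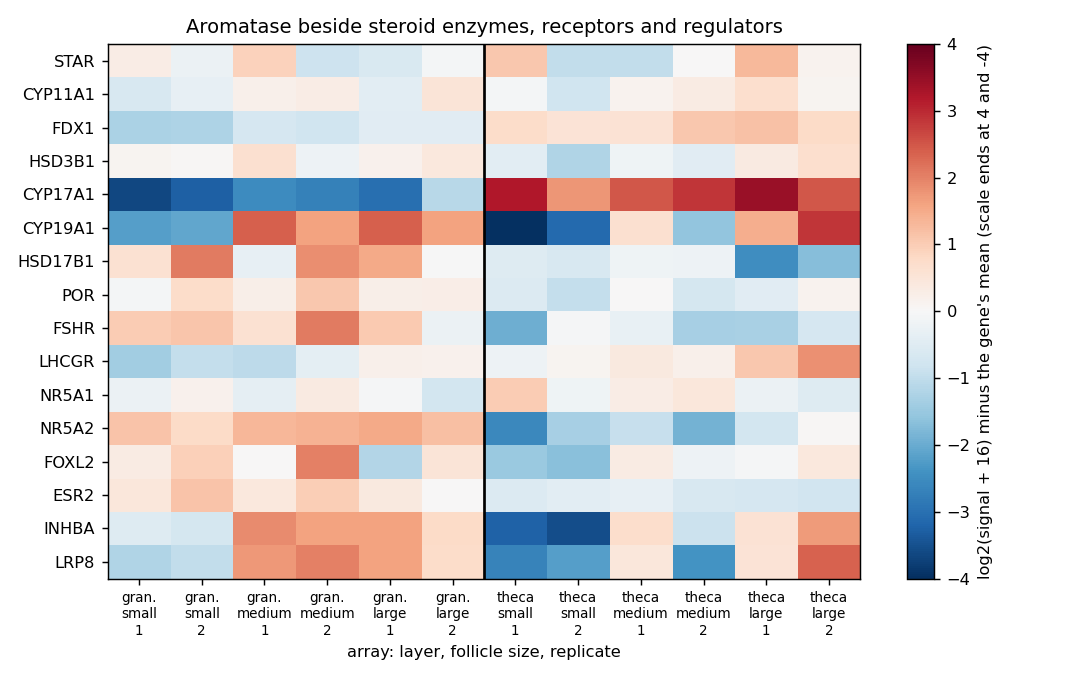
Log2(signal + 16) minus the gene's mean over the 12 arrays (colour, with the scale ending at 4 and -4) for CYP19A1 and 15 genes of its pathways (rows) on each array (columns: layer, size, replicate). CYP19A1, INHBA and LRP8 are low on the small follicle arrays of both layers, while CYP17A1 separates granulosa (26.5 to 227.7) from theca (1785.8 to 5781.5) at every size.

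The genes whose pattern was most like that of CYP19A1 were ranked by Pearson's r over the 6 group means, among 735 genes whose group means spanned at least 2 on the log2 scale. The first 10 were LRP8 (0.971), INHBA (0.943), the mitochondrial isocitrate dehydrogenase subunit IDH3A (0.938), the HMG-box protein TOX (0.882), SLC35G1 (0.851), YWHAZ (0.836), IFI6 (0.835), LOC281376 (0.824), OXT (0.820) and PDSS1 (0.814). Ranked over the 6 granulosa arrays alone, among 202 genes, INHBA (0.963), LRP8 (0.954) and IFI6 (0.941) came first, and these 3 were the genes shared by both lists of 10. DEFB4A (0.882), IFI27 (0.844), CYBB (0.830), CTSC (0.818), TIMD4 (0.791), LOC404103 (0.787) and VCAM1 (0.786) followed. Among the granulosa arrays, each of those that followed except IFI27 was highest on granulosa large replicate 1. Over the 6 theca arrays r was 0.958 for LRP8 and 0.968 for INHBA. The points share the arrays and their scaling, and the values are descriptions of likeness only.

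LRP8 gave 31.2 and 39.8 in granulosa of small follicles, 349.6 and 432.7 in medium and 318.9 and 166.1 in large ones. In theca it gave 1.1 and 7.9, 135.5 and 4.8, and 143.3 and 552.7. Like CYP19A1 and INHBA, it was higher in replicate 1 of theca medium and in replicate 2 of theca large. CYP19A1 spanned 5.70 between its lowest and highest group mean, and LRP8 4.32. SLC35G1 had a further probe set with another course, at 2.02 against 0.88 from small to large granulosa and 0.41 against 2.06 in theca.

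**Figure D5:**
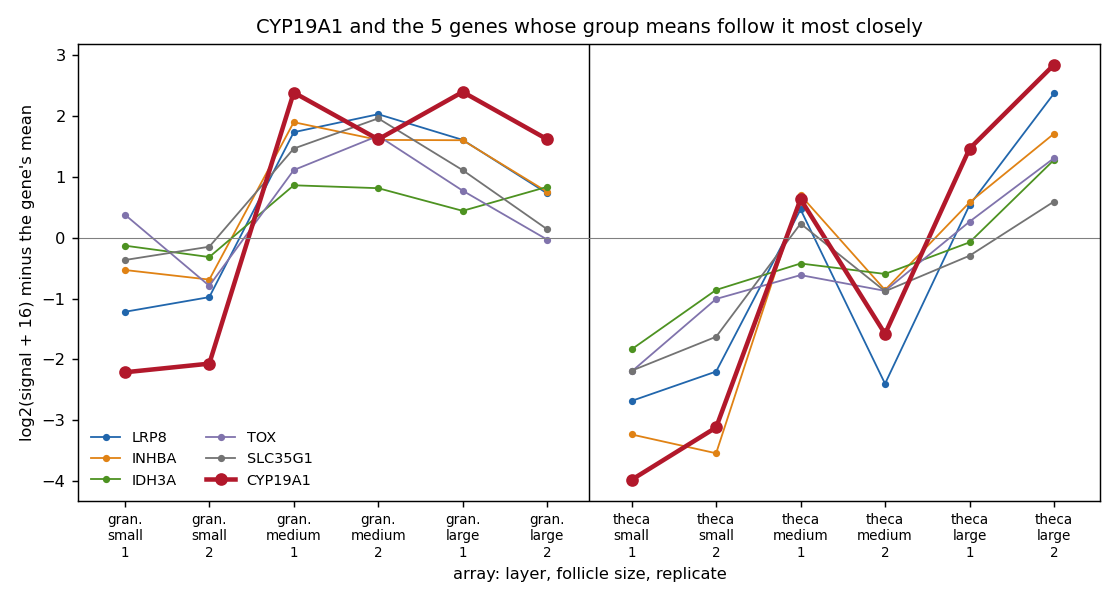
Log2(signal + 16) minus the gene's mean over 12 arrays for CYP19A1 and the 5 genes most like it over the group means, on each array (x axis: layer, size, replicate; lines join the arrays of a layer for reading only). LRP8 (r = 0.971) and INHBA (r = 0.943) are low in small follicles of both layers and drop with CYP19A1 in theca medium replicate 2.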

How the data were processed

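RNA was hybridised to 12 1-colour Affymetrix bovine arrays, per the labels. The authors deposited 1 scaled signal intensity per probe set and array. The software behind these intensities is not given in the sources used here, but their 2% trimmed mean was 125.0 on every array (medians 33.7 to 48.8). No detection calls were used. The number of arrays limits the precision.

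From these intensities, log2(signal + 16) was computed and 112 control probe sets were left out. Testing was limited to the 17236 of 24016 probe sets whose mean log2 value passed the 40th percentile of all values in 1 group or more. Linear models with 1 mean per group over all 12 arrays were fitted with limma 3.58.1 (R 4.3.3), 13 contrasts were moderated with eBayes (6 residual and 7.92 prior degrees of freedom), and p-values were adjusted by Benjamini-Hochberg within each contrast. Fold changes are on the log2(signal + 16) scale and understate changes of low signals. Exact permutation tests were two-sided. For genes with several probe sets the brightest stood for the gene. Of the probe sets, 13292 had 1 gene symbol, 86 several and 10638 none, and 13263 of the first were found in the reference gene table with no symbol changed. The code was tested on simulated data with known changes. Figures were drawn with matplotlib 3.10.9.

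The gene, the gene lists and the markers were chosen with earlier results of these data known, so counts within the lists are descriptions and not independent support. The probe sets of CYP19A1 were then taken by gene symbol alone. Named genes were, per pathway list, up to 4 called members with the largest change in the granulosa large minus small, granulosa large minus medium, and layer comparisons in large follicles and over all sizes, a fixed set of receptors, enzymes and transcription factors, and the 10 genes most like CYP19A1 over the group means and over granulosa arrays. Marker genes were named to give their values in full or the ends of a range. Alternatives covered the value added before the logarithm, the filter, quantile and median scaling, the replicate number as a block, fits to 1 layer or size, each array left out, and, chosen after seeing the data, the second probe set, the mean of both probe sets, the theca share with each array left out, and the omission of granulosa large replicate 1 and theca small replicate 1 together. Same-numbered replicates deviated together in some group pairs only (15 group pairs, correlations -0.33 to 0.40, median -0.07), so numbers were not used as pairs. No sequence or coordinate of the probe sets was used here.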

Additional observations from a re-analysis of the deposited data

How the results depend on the processing

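The direction of the CYP19A1 changes from small to medium and from small to large follicles was kept in both layers under every alternative run. Granulosa from small to medium passed the threshold with median scaling (4.17) and with granulosa arrays alone (4.14), and ranged from 3.76 to 4.53 with arrays left out in turn. Granulosa from small to large (3.76 to 4.54 with arrays left out) was no longer called without the 2 arrays that stood apart (3.76). Theca from small to large (5.01 to 6.39) was no longer called without those arrays (5.27), with theca arrays alone (5.70) or with the second probe set (2.63). Theca from small to medium ranged from 1.97 to 4.18 with arrays left out and was 0.77 with the second probe set. The granulosa difference between medium and large turned negative with quantile normalization (-0.061), median scaling (-0.27) and without those 2 arrays (-0.38), with a range of -0.38 to 0.39 over arrays left out. The layer difference in medium follicles (1.37 to 3.58) lost its call with log2(signal + 1) (2.54), log2(signal + 64) (2.32), no filter on low values (2.48) and the second probe set (1.71). In large follicles it ranged from -0.84 to 0.54. Over all sizes (0.88 to 1.62) it lost its call with log2(signal + 64) (1.01), without the 2 arrays (0.97), with the geometric mean of both probe sets (0.92) and with the second probe set (0.59). The layer difference in the small to medium change ranged from -0.039 to 2.18. The cause of these changes was not tested. The exact permutation slopes in granulosa (1.75 to 2.54 with arrays left out) had p = 0.111 with quantile normalization (2.08) and median scaling (1.95). Those in theca ranged from 2.59 to 3.18, and the permuted layer difference from 0.88 to 1.62. With 1 array of a layer left out, the smallest p of the slope test is 0.0333 or 0.0667, so a lost call there says little.

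With the replicate number as a block, CYP19A1 rose from small to large follicles by 4.15 in granulosa (limma adjusted p = 0.00378) and by 5.70 in theca (0.00356), and the block changed no CYP19A1 call. Whether the numbers mark a pairing could not be settled: of 15 pairs of groups, 6 had same-numbered deviations correlated above 0.1.

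Values near 0 changed sign. On the second probe set, granulosa medium to large was -0.13 with median scaling and -0.014 without the 2 arrays (-0.014 to 0.25 with arrays left out), the layer difference in small follicles was -0.49 without the 2 arrays (-0.49 to 0.65), that in large follicles ranged from -0.87 to 0.82, and the layer difference in the small to large change was 0.33 without the 2 arrays (-0.96 to 0.74). Between layers in large follicles, INHBA was -0.27 with median scaling and -0.39 without the 2 arrays (-0.53 to 0.60), LRP8 ranged from -1.20 to 0.63, and FOXL2 was 0.34 without the 2 arrays (-1.37 to 0.34). HSD17B1 from small to large granulosa ranged from -1.36 to 0.18. Over all sizes, TNFAIP6 was -0.055 with log2(signal + 64) (-0.15 to 0.50), CYP11A1 was 0.15 without the 2 arrays (-0.29 to 0.035) and STAR was 0.25 (-0.52 to 0.16). Of 73 named gene results, 50 were called, and 27 of these kept their call in every alternative.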
